A study of Mus musculus with 9 samples.

Results

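The genes described here are 10 mouse apolipoproteins, Apoa1, Apoa2, Apoa4, Apoa5, Apob, Apoc1, Apoc3, Apoe, Apom and Apoh. They were taken by gene symbol from the 53647 genes of a count table, over all 9 of its samples, and each of the 10 had a row. A total of 6 members (Apoe, Apob, Apoc1, Apoa5, Apoa2 and Apoa1) were among the 13661 genes with enough counts to be tested. The other 4, Apom, Apoh, Apoa4 and Apoc3, stayed under the filter on low counts and are given by their counts.

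The samples were Hepa 1-6 cells, a mouse hepatoma line grown in medium with fetal bovine serum, and their poly(A) RNA was sequenced in 3 groups of 3. Control cells carried a control guide RNA. In the second group Usp5, which encodes a deubiquitinase that takes apart unanchored ubiquitin chains, had been knocked out with a lentiviral CRISPR vector. In the third group Ythdf1, which encodes a reader of methylated adenosines in cytoplasmic mRNA, had been knocked out with plasmids that carry Cas9 and EGFP. Knockout cells were cloned by dilution to single cells, and loss of the protein was read on immunoblots. The sources used here do not give how many clones were sequenced or whether the control cells were cloned, so loss of the gene and differences between clones or vectors cannot be told apart. Nothing in the labels shows that the samples of a group were separate cultures. All p-values below therefore rest on the spread between these samples alone, and that spread may be technical.

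The samples held between 24760877 and 42989715 counts. Levels are given as CPM, counts scaled to library size after TMM scaling, unless a per-length level is named. Usp5 mRNA stood at 184 to 234 CPM in control samples and at 110 to 123 CPM in the Usp5 knockout (log2 fold change -0.89 ± 0.108, SE; edgeR adjusted p = 0.000316). Ythdf1 mRNA stood at 181 to 195 CPM in control samples and at 45.7 to 49.9 CPM in the Ythdf1 knockout (log2 fold change -1.97 ± 0.0736, SE; edgeR adjusted p = 1.21e-07). Mitochondrial genes took 2.32% and 2.33% of the counts of control samples 2 and 1 and 5.91% of control sample 3, against 3.67% to 6.14% in the Usp5 knockout and 3.51% to 4.96% in the Ythdf1 knockout. Of 12 hepatocyte markers, 8 were at 1 CPM or more on average in at least 1 group, Ttr in the Ythdf1 knockout alone. The list summed to 2429 to 2461 CPM in control, 2878 to 3218 CPM without Usp5 and 3731 to 3913 CPM without Ythdf1. Much of that sum came from Afp and Alb, at 1051 and 590 CPM on average in control. Among the 8 markers tested, 2 were called higher (Alb, Hnf4a) and 1 lower without Usp5 at an edgeR adjusted p under 0.05. That was 37.5%, against 19.8% of all tested genes. In the Ythdf1 knockout 7 were higher and 0 lower (87.5% against 46.5%). Pck1, a gluconeogenic enzyme gene, was at 0 in all 9 samples.

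Apolipoproteins are the protein part of lipoproteins, the particles that carry cholesterol and triglycerides in blood. Apob is the large structural protein that stays with a particle from its assembly in the liver or gut, whereas the small exchangeable apolipoproteins of the A, C and E classes move between particles, switch lipases on or off and bind receptors. The hepatocyte makes most of them, and high-density lipoprotein (HDL) is built around Apoa1 and Apoa2.

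Apoe was the one apolipoprotein of the 10 present at a high level, and 4 of the 10 were close to silent in these hepatoma cells. On a per-length scale (TPM, from the counts and the gene lengths of the table), Apoe stood at 4207 ± 267 (SD, n = 3) in control, at 7819 ± 678 without Usp5 and at 9043 ± 451 without Ythdf1. It was the 12th to 16th most abundant of the 53647 genes in control samples, the 8th to 10th without Usp5 and the 5th to 8th without Ythdf1. Apob followed at per-length levels of 28.8 ± 2.86, 27.7 ± 5.41 and 35.0 ± 4.18 in the same order of groups, and Apoc1 at 26.4 ± 10.5, 10.8 ± 4.18 and 32.7 ± 2.25. Per-length levels of Apoa2 were 2.38 ± 0.729 in control, 4.03 ± 0.826 without Usp5 and 5.60 ± 0.937 without Ythdf1, those of Apoa5 were 0.704 ± 0.190, 1.65 ± 0.442 and 1.47 ± 0.263, and those of Apoa1 were 0.561 ± 0.168, 0.643 ± 0.365 and 0.753 ± 0.219. The neighbours Apob and Apoc1 in this order did not differ beyond their spread in control and in the Ythdf1 knockout, nor did Apoa5 and Apoa1 in control. With the effective lengths deposited beside the lengths, Apoc1 came before Apob in those 2 groups (49.0 against 25.3 in control and 59.6 against 30.4 in the Ythdf1 knockout), because the effective length of the short Apoc1 transcript is 181 bases against a length of 445. On that scale Apoe stood at 2786 ± 231, 4948 ± 590 and 5904 ± 327 in control, Usp5 and Ythdf1 knockouts, Apoa5 at 0.455 ± 0.129, 1.00 ± 0.216 and 0.935 ± 0.168, and Apoa1 at 0.396 ± 0.123, 0.424 ± 0.229 and 0.523 ± 0.149. The per-length level of Apoe was 124 to 172 times that of Apob in control samples, 235 to 371 times in the Usp5 knockout and 215 to 295 times in the Ythdf1 knockout.

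**Figure D1:**
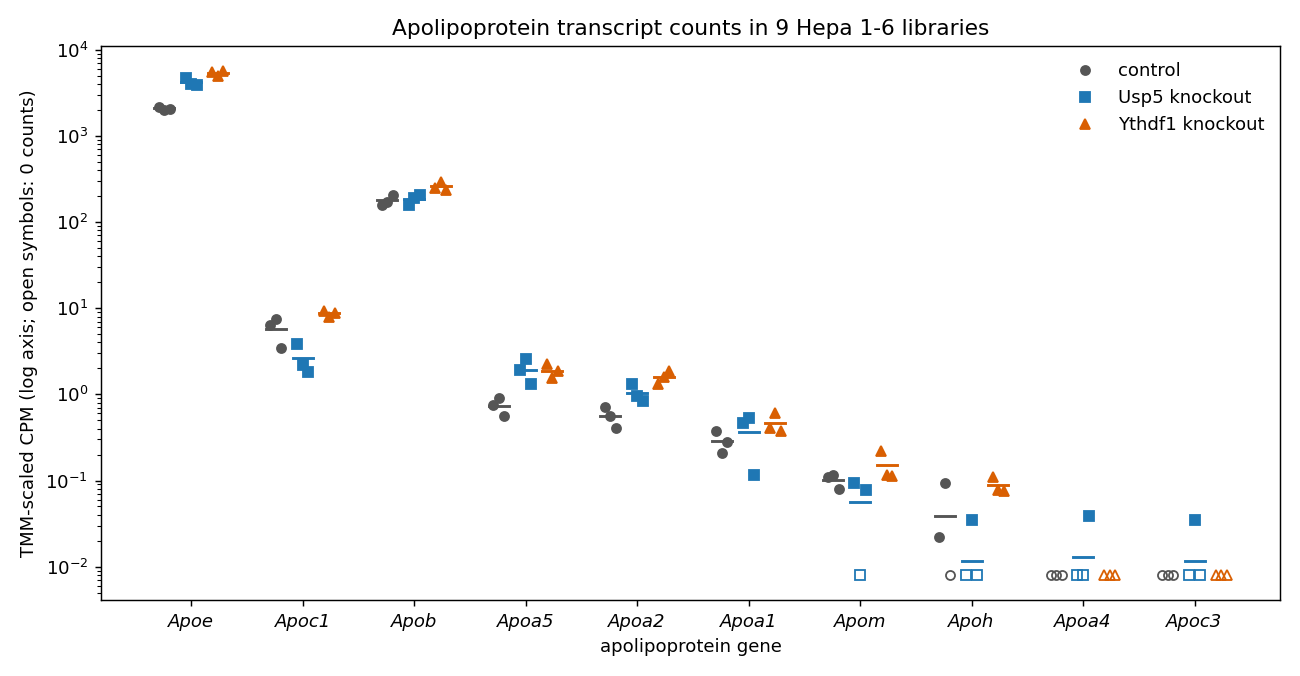
TMM-scaled CPM (log axis) of each of the 10 apolipoprotein genes in the 9 samples, with circles for control, squares for the Usp5 knockout, triangles for the Ythdf1 knockout, bars for group means and open symbols for samples with 0 counts. Apoe lies between 2014 and 5629 CPM in all samples, and Apoa4 and Apoc3 have a single count each.

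The 4 members that were called higher in the Ythdf1 knockout shared neither TATAAA nor CCAAT, searched as exact strings, in the windows printed here. When all annotated starts were read, TATAAA was found for each of these 4, and for no other of the 8 members with a window. The search was uneven, with 3 windows for Apoe and 2 each for Apoa2 and Apoa5. Apob, Apoa1, Apoa4, Apom and Apoh had 1 window each, so the split cannot be read as a trait of the called genes. For Apoe and Apoa2 it lies only before a start that is not printed. Whether the motif had a part in the changes was not tested. The 250 bases before the annotated start are shown for those 4, 5′ to 3′ on the strand of the gene, from RefSeq on GRCm38.p6, which is not the GRCm39 build named for the counts; the windows cover chr7:19699189-19699438 on the minus strand for Apoe, chr12:7977427-7977676 on the plus strand for Apob, chr9:46268358-46268607 on the plus strand for Apoa5 and chr1:171221314-171221563 on the plus strand for Apoa2. Capitals mark a TATA box (TATAAA) or a CCAAT box on either strand.
Apoe: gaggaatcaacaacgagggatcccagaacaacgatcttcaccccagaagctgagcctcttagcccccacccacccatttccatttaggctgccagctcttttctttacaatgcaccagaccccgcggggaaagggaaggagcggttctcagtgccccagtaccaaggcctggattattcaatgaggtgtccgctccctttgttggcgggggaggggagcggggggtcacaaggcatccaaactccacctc
Apob: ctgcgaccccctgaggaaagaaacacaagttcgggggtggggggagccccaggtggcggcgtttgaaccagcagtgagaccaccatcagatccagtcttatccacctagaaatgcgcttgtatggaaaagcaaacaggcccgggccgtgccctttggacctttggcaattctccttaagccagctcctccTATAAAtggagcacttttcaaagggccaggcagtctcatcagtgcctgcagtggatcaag
Apoa5: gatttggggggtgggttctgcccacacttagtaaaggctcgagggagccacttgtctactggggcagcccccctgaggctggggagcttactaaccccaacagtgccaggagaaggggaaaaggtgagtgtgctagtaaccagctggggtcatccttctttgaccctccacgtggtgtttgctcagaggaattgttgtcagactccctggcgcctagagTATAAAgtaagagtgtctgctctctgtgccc
Apoa2: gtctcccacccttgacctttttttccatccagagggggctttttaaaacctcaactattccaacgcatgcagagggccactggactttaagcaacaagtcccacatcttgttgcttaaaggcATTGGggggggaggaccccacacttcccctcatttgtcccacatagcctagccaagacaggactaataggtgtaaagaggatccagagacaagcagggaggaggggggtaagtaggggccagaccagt
The TATA box stands at position -31 from the start of Apoa5 and at -60 from that of Apob, and the printed Apoa2 window holds a CCAAT box on its reverse strand (ATTGG) at -128. The printed Apoe window, that of the most upstream of its 3 annotated starts, holds neither motif; a further Apoe start has TATAAA at -96 and a further Apoa2 start at -212. TATAAA on either strand occurs in 13.6% of all 32851 windows of 300 bases (250 before and 50 after a start) and CCAAT in 37.4%. The HNF4 core CAAAGTCCA, found in 0.475% of all windows, was in none of the windows of the 8 members that have one, which says nothing of other forms of the site. Apoc1 and Apoc3 have no window in the table used.

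Apoe encodes the ligand through which remnant particles bind receptors on the liver cell. Its mRNA rose in both knockouts, by 2.02-fold without Usp5 and by 2.59-fold without Ythdf1. The control samples stood at 2168, 2014 and 2049 CPM, the Usp5 knockout samples at 4683, 4005 and 3900 CPM, and the Ythdf1 knockout samples at 5495, 4997 and 5629 CPM. Every knockout sample was above every control sample, and the Ythdf1 knockout samples were all above the Usp5 knockout samples. The log2 fold change was 1.01 ± 0.0975 (SE, n = 3 per group; quasi-likelihood test of edgeR with Benjamini-Hochberg adjustment, adjusted p = 6.78e-05) for the Usp5 knockout and 1.37 ± 0.0983 (edgeR adjusted p = 7.13e-06) for the Ythdf1 knockout, and both calls held in every alternative run at an adjusted p under 0.05. The Usp5 knockout was lower than the Ythdf1 knockout by 0.36 on the log2 scale (-0.36 ± 0.0966, edgeR adjusted p = 0.0119). That last call was lost without Usp5 knockout sample 2 (-0.29, adjusted p = 0.0585), without Ythdf1 knockout sample 1 (-0.31, adjusted p = 0.0563) and without Ythdf1 knockout sample 3 (-0.30, adjusted p = 0.0640).

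Because Apoe made up 90.7% to 96.6% of the counts of the 10 genes in every sample, it set their total. Together the 10 genes took 0.238% ± 0.0119 of all counts in control (SD, n = 3), 0.436% ± 0.0389 in the Usp5 knockout and 0.539% ± 0.0275 in the Ythdf1 knockout.

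Apob, the structural protein of very-low-density lipoprotein (VLDL), rose in the Ythdf1 knockout and did not pass the test in the Usp5 knockout. Control samples stood at 157, 172 and 205 CPM, Usp5 knockout samples at 157, 187 and 206 CPM, and Ythdf1 knockout samples at 249, 289 and 237 CPM. The first 2 groups overlapped over almost their whole range, and all Ythdf1 knockout samples lay above both. The log2 fold change was 0.05 ± 0.131 (SE; edgeR adjusted p = 0.839) for the Usp5 knockout and 0.54 ± 0.131 (edgeR adjusted p = 0.00691) for the Ythdf1 knockout. The difference between the knockouts was -0.50 ± 0.131 (edgeR adjusted p = 0.0106), and without Ythdf1 knockout sample 2 it was -0.38 (adjusted p = 0.0538).

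Apoc1, an inhibitor of lipoprotein lipase and of remnant uptake, was the one tested member that was lower in the Usp5 knockout. Its CPM was 6.45, 7.48 and 3.42 in control, 3.88, 2.17 and 1.81 without Usp5, and 9.36, 7.93 and 8.88 without Ythdf1. Control sample 3 lay below Usp5 knockout sample 1, so these groups overlapped; the Ythdf1 knockout overlapped with neither of the others. The log2 fold change was -1.13 ± 0.314 (SE; edgeR adjusted p = 0.0302) for the Usp5 knockout, which was a fitted level of 45.7% of control, and 0.58 ± 0.298 (edgeR adjusted p = 0.137) for the Ythdf1 knockout. The Usp5 call was lost in a fit of those 2 groups alone (adjusted p = 0.0710) and without control sample 1 (-1.05, adjusted p = 0.0862), control sample 2 (-0.91, adjusted p = 0.124), Usp5 knockout sample 2 (-1.01, adjusted p = 0.112) or Usp5 knockout sample 3 (-0.93, adjusted p = 0.0761). Control sample 3, the lowest control for Apoc1, is also the control sample with the highest share of mitochondrial counts (5.91%), and without it the log2 fold change was -1.37 (adjusted p = 0.00290); the part of that share was not tested. Between the knockouts Apoc1 was lower without Usp5 by 1.70 (-1.70 ± 0.316, edgeR adjusted p = 0.00152), a call that held in every alternative run at the same threshold. Apoc3, another inhibitor of lipoprotein lipase, had a single count in all 9 libraries, in Usp5 knockout sample 2. Its 0 counts in the control and Ythdf1 knockout groups allow up to 0.0266 and 0.0377 CPM (3 counts over the group, counting error only).

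Apoa5, an activator of lipoprotein lipase, was higher in both knockouts at a low level. Its CPM was 0.756, 0.906 and 0.564 in control (34, 39 and 14 counts), 1.9, 2.55 and 1.31 in the Usp5 knockout (81, 73 and 34 counts), and 2.26, 1.53 and 1.85 in the Ythdf1 knockout (61, 40 and 49 counts). All 6 knockout samples lay above the controls, and the knockouts overlapped with each other. The log2 fold change was 1.35 ± 0.293 (SE; edgeR adjusted p = 0.00972) for the Usp5 knockout and 1.31 ± 0.296 (edgeR adjusted p = 0.00472) for the Ythdf1 knockout, and both calls held in every alternative run at an adjusted p under 0.05. The knockouts differed by 0.03 ± 0.278 (edgeR adjusted p = 0.928).

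The HDL apolipoproteins were low, and of them Apoa2 rose in the Ythdf1 knockout. Apoa2, the smaller of the main HDL proteins, stood at 0.711, 0.557 and 0.403 CPM in control, 1.32, 0.945 and 0.848 CPM in the Usp5 knockout, and 1.33, 1.57 and 1.85 CPM in the Ythdf1 knockout. No control sample reached a knockout sample. The log2 fold change was 1.47 ± 0.283 (SE; edgeR adjusted p = 0.00203) for the Ythdf1 knockout and 0.88 ± 0.287 (edgeR adjusted p = 0.0567) for the Usp5 knockout, where DESeq2 gave an adjusted p of 0.0495, and edgeR gave 0.0452 with a stricter filter and 0.0470 without Usp5 knockout sample 3. The difference between the knockouts was -0.59 ± 0.270 (edgeR adjusted p = 0.0940).

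Apoa1, the core protein of HDL, had 17, 9 and 7 counts in the control samples, 20, 15 and 3 counts without Usp5, and 11, 16 and 10 counts without Ythdf1. Its CPM lay between 0.116 and 0.613 and all 3 groups overlapped. The log2 fold change was 0.39 ± 0.489 (SE; edgeR adjusted p = 0.622) without Usp5 and 0.67 ± 0.490 (edgeR adjusted p = 0.288) without Ythdf1, so a change was not detectable at this depth. Apoa4, a further A-class apolipoprotein, had 1 count in all, in Usp5 knockout sample 3.

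Apom, a carrier of sphingosine-1-phosphate on HDL, had 5, 5 and 2 counts in the control samples, 4, 0 and 2 counts without Usp5, and 6, 3 and 3 counts without Ythdf1. The ratio of its summed level to control was 0.581 in the Usp5 knockout (exact 95% interval 0.179 to 1.67) and 1.42 in the Ythdf1 knockout (0.583 to 3.45), with intervals that cover counting error only. Apoh, beta-2-glycoprotein I, had 1, 4 and 0 counts in the control samples, 0, 1 and 0 counts without Usp5, and 3, 2 and 2 counts without Ythdf1. The ratio of its summed level to control was 0.232 in the Usp5 knockout (exact 95% interval 0.00492 to 2.08) and 1.99 in the Ythdf1 knockout (0.542 to 7.93). Between the knockouts, on 1 count without Usp5 and 7 without Ythdf1, the ratio was 0.117 with an interval of 0.00260 to 0.912, which leaves out 1 on counting error alone and does not cover the spread between samples. Apoh shares exons with Prkca on the opposite strand in the annotation used, and Prkca had 8744 counts over the 9 samples; the sources used here do not give whether counting used strand.

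Of the 6 tested members, 2 were called higher (Apoe, Apoa5) and 1 lower (Apoc1) in the Usp5 knockout, where 19.8% of all tested genes were called, 9.96% higher and 9.8% lower. In the Ythdf1 knockout 4 were higher (Apoe, Apob, Apoa5, Apoa2) and 0 lower, where 46.5% of all tested genes were called, 23.7% higher and 22.8% lower. Apoc1 and Apoa1 made up the rest, with values above. The Usp5 knockout was lower than the Ythdf1 knockout for 3 members (Apoe, Apob, Apoc1) and higher for 0, where 48.5% of tested genes were called, 23.3% higher and 25.2% lower. The median log2 fold change of the 6 was 0.63 in the Usp5 knockout and 0.99 in the Ythdf1 knockout, against -0.0123 and 0.0211 over all tested genes, and -0.43 between the knockouts against 0.000278. These counts cover the members that passed the filter and are a description of them. Both knockouts are compared with the same 3 control samples.

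**Figure D2:**
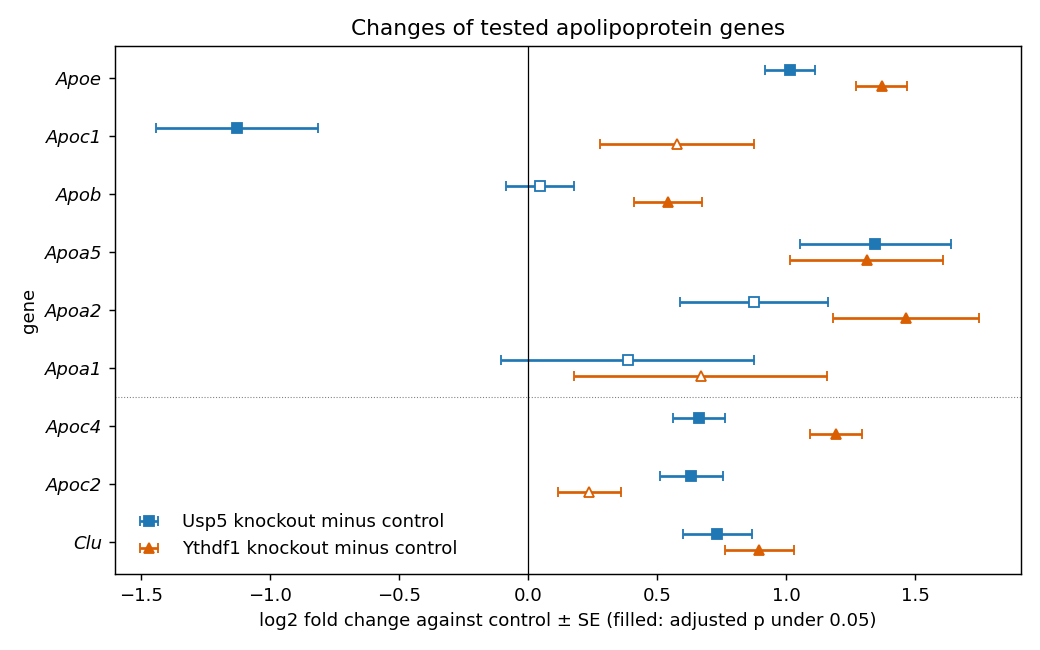
Log2 fold change against control ± SE (x axis) of the 6 tested members, above the dotted line, and of Apoc4, Apoc2 and Clu below it, with squares for the Usp5 knockout, triangles for the Ythdf1 knockout and filled symbols for an adjusted p under 0.05. Apoc1 is the sole gene shown to the left of 0, at -1.13 in the Usp5 knockout.

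Across the 9 samples the members did not share a single profile. The Pearson correlation of log2 CPM with Apoe was 0.933 for Apoa2, 0.877 for Apoa5, 0.575 for Apob, 0.417 for Apoa1 and 0.135 for Apoc1, over 9 samples that share 3 groups. Among the other tested genes with at least 5 CPM on average, the profiles most like that of Apoe were those of Ctsz (r = 0.996), Stk40 (0.996) and Stard10 (0.991). Those most like Apob were Mrps35 (0.989), Mmp13 (0.981) and Zfp566 (0.976), and those most like Apoc1 were Fdx1 (0.991), Bet1l (0.982) and Coq7 (0.981). Apoa5 was most like Gle1 (0.976) and Apoa2 most like Tm2d3 (0.975). These are the highest values among 9826 or 9827 genes per member, and they compare shape, not size. Gle1 had log2 fold changes of 0.14 without Usp5 and 0.13 without Ythdf1, where Apoa5 had 1.35 and 1.31. The closest match to Apoa1 was Zbtb7a (0.933), at 33, 38 and 37 counts per group for Apoa1 itself.

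Apoe, Apoc1, Apoc4 and Apoc2 lie next to each other on chromosome 7, and they did not change alike. Apoc4, an apolipoprotein of triglyceride-rich particles, stood at 22.0, 19.4 and 20.4 CPM in control, 32.5, 30.3 and 35.0 CPM in the Usp5 knockout, and 51.2, 41.7 and 48.4 CPM in the Ythdf1 knockout. Its 3 groups did not overlap, as for Apoe, with log2 fold changes of 0.66 ± 0.10 (SE; edgeR adjusted p = 0.00127) and 1.19 ± 0.101 (edgeR adjusted p = 1.95e-05). Apoc2, the cofactor that lipoprotein lipase needs, was instead highest in the Usp5 knockout, at 25.7, 23.3 and 22.5 CPM against 17.5, 15.2 and 13.4 CPM in control and 19.5, 15.6 and 19.4 CPM in the Ythdf1 knockout. Its log2 fold change was 0.63 ± 0.122 (edgeR adjusted p = 0.00533) without Usp5 and 0.24 ± 0.123 (edgeR adjusted p = 0.138) without Ythdf1. The read-through gene Gm44805, with 2232 counts, shares exons with Apoc2 and Apoc4 on the same strand, so the split of reads among the 3 is uncertain. Apoc1, which lies between Apoc4 and Apoe, was lower in the Usp5 knockout, as given above. Outside the apolipoproteins of this cluster, Tomm40, which encodes the mitochondrial import pore, had log2 fold changes of -0.16 ± 0.148 and -0.02 ± 0.148 and Nectin2, a cell adhesion gene, of -0.50 ± 0.0765 (edgeR adjusted p = 0.00134) and 0.27 ± 0.0763 (edgeR adjusted p = 0.0147) without Usp5 and Ythdf1 in turn. Clptm1, at the other end beyond Apoc2, had 0.17 ± 0.0666 (edgeR adjusted p = 0.104) and 0.51 ± 0.0667 (edgeR adjusted p = 0.000225).

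On chromosome 9 the order is Apoa1, Apoc3, Apoa4 and Apoa5, and of these Apoa5 alone passed a test. Its neighbour on the far side, the zinc finger gene Zpr1, had log2 fold changes of 0.01 ± 0.0875 (SE; edgeR adjusted p = 0.933) without Usp5 and 0.25 ± 0.0875 (edgeR adjusted p = 0.0406) without Ythdf1. Sik3, a kinase gene on the other side of Apoa1, rose by 0.42 ± 0.105 (edgeR adjusted p = 0.0201) and 0.50 ± 0.105 (edgeR adjusted p = 0.00311). Over the genes next to any of the 10 members, up to 2 on each side and no members themselves, 14 were tested; 2 were higher and 0 lower in the Usp5 knockout, and 4 were higher and 1 lower in the Ythdf1 knockout. The 14 include Apoc4, itself an apolipoprotein and called higher in both knockouts. They leave out Sik3 and Nectin2, which lie further off and were called in both. The called shares were 14.3% and 35.7%, against 19.8% and 46.5% of all tested genes, on too few genes to rank the shares.

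**Figure D3:**
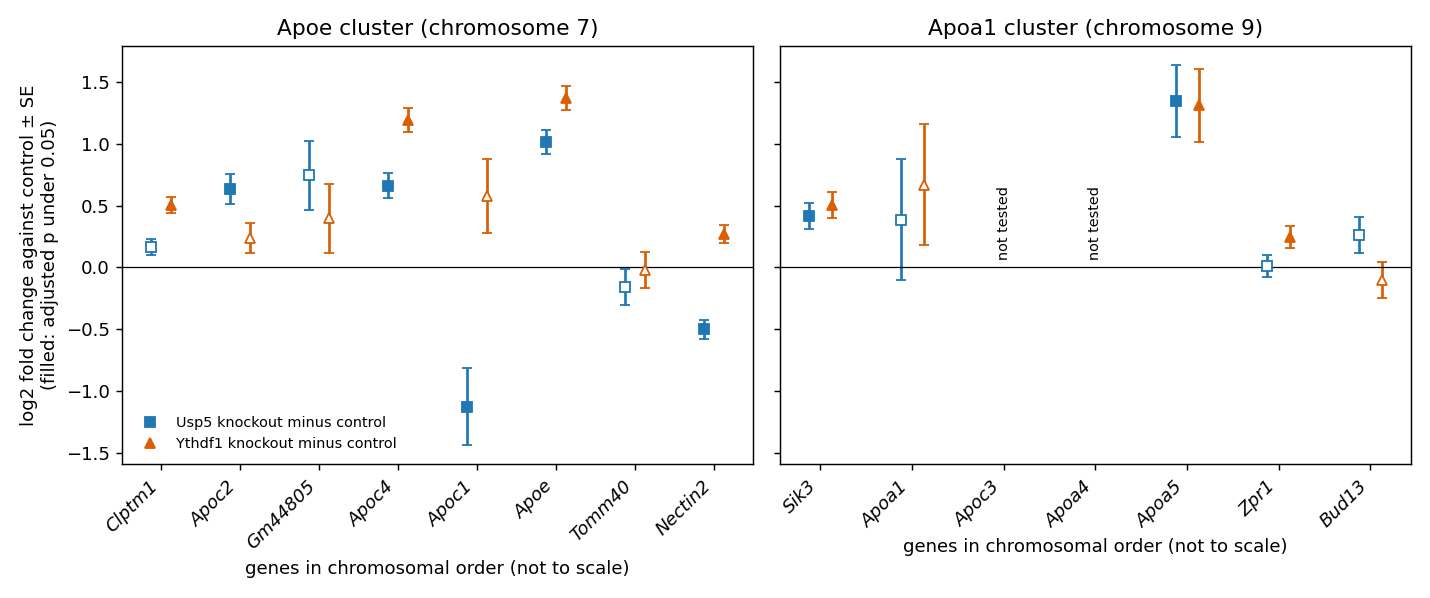
Log2 fold change against control ± SE (y axis) of the genes of the Apoe cluster (left) and the Apoa1 cluster (right) in chromosomal order, not to scale, with squares for the Usp5 knockout, triangles for the Ythdf1 knockout and filled symbols for an adjusted p under 0.05. In the left panel Apoc1 lies at -1.13 in the Usp5 knockout while Apoe beside it lies at 1.01.

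Of 18 further apolipoprotein or apolipoprotein-like genes with a row, 9 were tested; 3 were higher (Apoc2, Apoc4, Clu) and 1 lower (Apol9a) in the Usp5 knockout, and 3 were higher (Apoc4, Clu, Apon) and 0 lower in the Ythdf1 knockout. That was 44.4% and 33.3% called, against 19.8% and 46.5% of all tested genes. Apol9a and Apon were under 5 CPM and are named after their values were seen; Apol9a has a near copy, Apol9b, so its reads are uncertain. Clusterin (Clu, also called apolipoprotein J), an extracellular chaperone, stood at 1526 ± 313 CPM in control (SD, n = 3), 2537 ± 183 CPM in the Usp5 knockout and 2841 ± 98.1 CPM in the Ythdf1 knockout. Its log2 fold changes were 0.73 ± 0.133 (SE; edgeR adjusted p = 0.00374) and 0.90 ± 0.133 (edgeR adjusted p = 0.000447), with no overlap between control and either knockout. Saa1 and Saa2, acute-phase apolipoproteins of HDL, had 0 counts in all 9 samples.

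Among the genes that load lipid onto Apob and move it out of the cell, Mttp and Apobec1 fell in both knockouts and Sort1 changed in opposite directions. Of 19 tested genes for lipoprotein assembly, secretion and Apob mRNA editing, 1 was higher and 3 lower in the Usp5 knockout (median log2 fold change -0.12), and 1 was higher and 8 lower in the Ythdf1 knockout (median -0.18). The called shares, 21.1% and 47.4%, were near those of all tested genes, 19.8% and 46.5%. Mttp, which transfers lipid to nascent Apob, fell in both, from 25.1, 24.7 and 23.5 CPM in control to 18.0, 18.0 and 18.9 CPM without Usp5 (-0.42 ± 0.0755, edgeR adjusted p = 0.00374) and 18.1, 18.2 and 17.2 CPM without Ythdf1 (-0.45 ± 0.0759, edgeR adjusted p = 0.000889). Apobec1, the deaminase that edits Apob mRNA to its short form, was lower without Usp5 (-0.58 ± 0.103, edgeR adjusted p = 0.00348). Without Ythdf1 it was lower by 0.31 (-0.31 ± 0.103, edgeR adjusted p = 0.0305), a call lost without control sample 3 (-0.21, adjusted p = 0.0783), Ythdf1 knockout sample 1 (adjusted p = 0.0744) or Ythdf1 knockout sample 3 (adjusted p = 0.0590). Sort1, a sorting receptor for Apob particles, fell by 1.31 without Usp5 (-1.31 ± 0.0916, edgeR adjusted p = 8.62e-06). It was the one gene of the list called higher without Ythdf1, as Apob was, by 0.36 ± 0.0888 (edgeR adjusted p = 0.00731), a call lost with library sizes alone (0.22, adjusted p = 0.101) and without Ythdf1 knockout sample 3 (0.27, adjusted p = 0.0626). Sec24d, a cargo subunit of COPII vesicles, fell from 69.2 to 81.2 CPM in control to 27.3 to 27.9 CPM without Ythdf1 (-1.43 ± 0.0884, edgeR adjusted p = 2.89e-06), and its log2 fold change without Usp5 was -0.25 ± 0.0857 (edgeR adjusted p = 0.0656).

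Genes for lipoprotein receptors changed in both directions without Ythdf1. Of 25 tested receptor genes and regulators, 5 were higher and 0 lower without Usp5, and 8 were higher and 5 lower without Ythdf1. The called shares were 20% and 52.0%, against 19.8% and 46.5% of all tested genes. Vldlr, the VLDL receptor gene, stood at 15.7, 16.7 and 17.3 CPM in control, 16.6, 16.5 and 17.9 CPM without Usp5 and 28.9, 34.3 and 31.5 CPM without Ythdf1. Its Ythdf1 knockout samples lay above all others, with a log2 fold change of 0.93 ± 0.0906 (SE; edgeR adjusted p = 4.07e-05), while the first 2 groups overlapped (0.04 ± 0.0910, edgeR adjusted p = 0.816). Lrp8, another Apoe receptor, fell by 0.67 without Ythdf1 (-0.67 ± 0.0921, edgeR adjusted p = 0.000275) and had a log2 fold change of 0.12 ± 0.0908 without Usp5 (edgeR adjusted p = 0.391). Lrp6, a member of the same receptor family, fell by 0.80 without Ythdf1 (-0.80 ± 0.107, edgeR adjusted p = 0.000257). Cubn, an endocytic receptor for Apoa1, rose by 0.89 ± 0.172 without Usp5 (edgeR adjusted p = 0.00532) and had a log2 fold change of -0.14 ± 0.177 without Ythdf1 (edgeR adjusted p = 0.556).

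Of 12 tested genes of HDL formation and remodelling, 3 were higher and 1 lower without Usp5 (33.3% called, against 19.8% of all tested genes), and 5 were higher and 2 lower without Ythdf1 (58.3% against 46.5%). Abcg1, which exports cholesterol to mature HDL, stood at 3.78, 3.92 and 3.54 CPM in control, 1.27, 1.54 and 1.08 CPM without Usp5 and 7.74, 10.6 and 9.33 CPM without Ythdf1. The 3 groups did not overlap, and the difference between the knockouts was -2.82 ± 0.177 (SE; edgeR adjusted p = 1.76e-06). Abca1, which lipidates Apoa1, fell by 0.74 without Ythdf1 (-0.74 ± 0.0764, edgeR adjusted p = 5.84e-05) and had a log2 fold change of -0.23 ± 0.0755 without Usp5 (edgeR adjusted p = 0.0592). The latter passed with library sizes alone (-0.31, adjusted p = 0.0318), with DESeq2 (adjusted p = 0.0320), with a stricter filter (adjusted p = 0.0478) and without Usp5 knockout sample 3 (-0.28, adjusted p = 0.0346). Lcat, which esterifies cholesterol on HDL with Apoa1 as its cofactor, had log2 fold changes of 0.53 ± 0.287 and 0.54 ± 0.290 (edgeR adjusted p = 0.225 and 0.151). Pltp, the phospholipid transfer protein gene, had 13, 15 and 3 counts in control, Usp5 and Ythdf1 knockouts and was not tested.

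Among 10 tested genes for triglyceride lipase and its regulators, 4 were higher and 0 lower without Usp5 (40.0% called, against 19.8% of all tested genes), and 5 were higher and 0 lower without Ythdf1 (50% against 46.5%). Angptl8, an inhibitor of lipoprotein lipase, stood at 3.69, 4.76 and 4.19 CPM in control, 4.18, 4.13 and 4.31 CPM without Usp5 and 55.4, 53.5 and 62.1 CPM without Ythdf1. That was a log2 fold change of 3.76 ± 0.114 (SE; edgeR adjusted p = 3.44e-08) in the Ythdf1 knockout. Pcsk6, a convertase, rose by 1.24 ± 0.0698 (edgeR adjusted p = 2.15e-06) without Usp5 and 0.39 ± 0.0690 (edgeR adjusted p = 0.00130) without Ythdf1, and Lpl, lipoprotein lipase itself, rose by 0.63 ± 0.101 (edgeR adjusted p = 0.000736) without Ythdf1. Without Usp5 Lpl was higher by 0.35 ± 0.101 (edgeR adjusted p = 0.0340), a call lost in a fit of those 2 groups alone (adjusted p = 0.0744), with library sizes alone (adjusted p = 0.0628) and without any 1 of control samples 1 and 2, Usp5 knockout samples 2 and 3 or Ythdf1 knockout samples 1 and 3 (adjusted p = 0.0509 to 0.135).

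**Figure D4:**
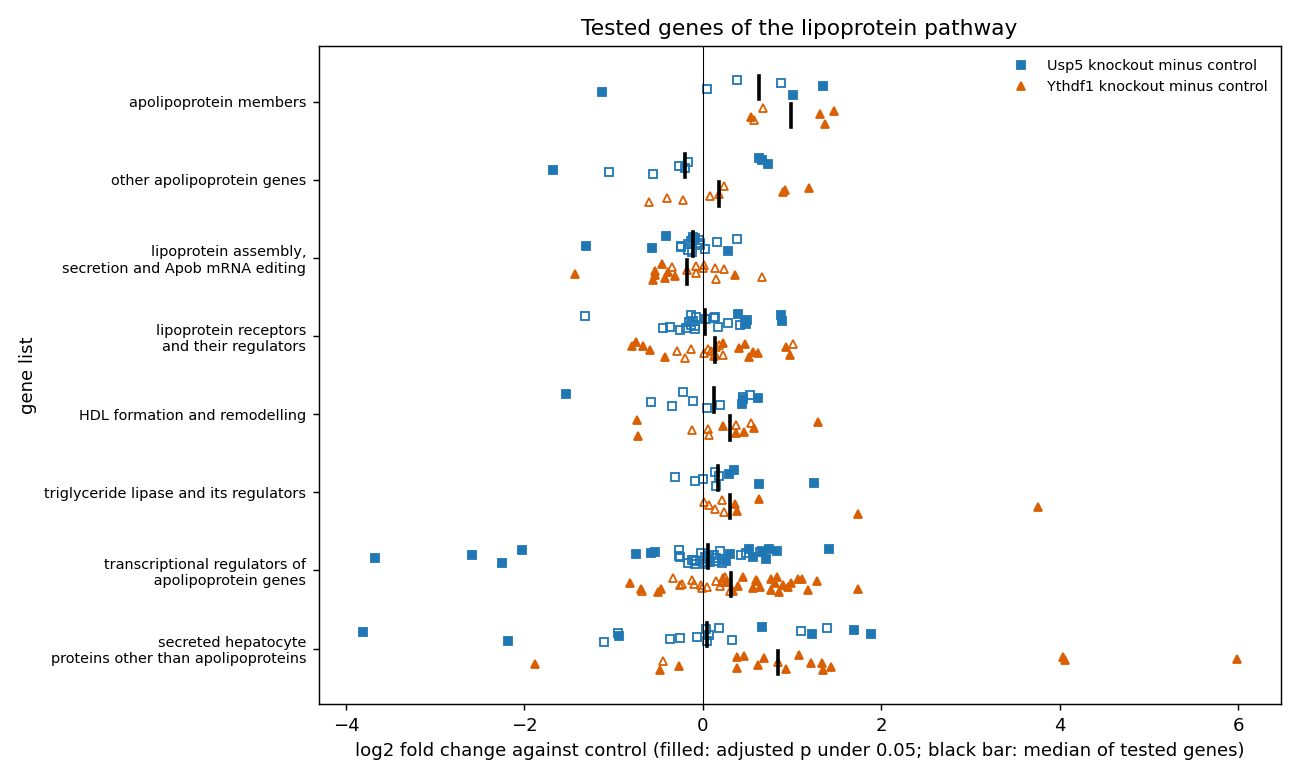
Log2 fold change against control (x axis) of every tested gene of 8 lists, with squares for the Usp5 knockout, triangles for the Ythdf1 knockout, filled symbols for an adjusted p under 0.05 and black bars for the median of the tested genes. The medians of the tested members are 0.63 and 0.99, and that of secreted hepatocyte proteins is 0.04 without Usp5 and 0.85 without Ythdf1.

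Genes for transcription factors known to act on apolipoprotein promoters were listed as a group. Of 40 tested, 9 were higher and 7 lower without Usp5 (40.0% called, against 19.8% of all tested genes), and 21 were higher and 4 lower without Ythdf1 (62.5% against 46.5%). Hnf4a, the nuclear receptor that drives many apolipoprotein genes in hepatocytes, stood at 223, 210 and 216 CPM in control, 315, 310 and 300 CPM without Usp5 and 298, 288 and 296 CPM without Ythdf1. Both knockouts lay above control, with log2 fold changes of 0.51 ± 0.0677 (SE; edgeR adjusted p = 0.000562) and 0.44 ± 0.0677 (edgeR adjusted p = 0.000521). Nr1h3, the oxysterol receptor LXR-alpha with Apoe among its known targets, rose by 0.99 ± 0.145 without Ythdf1 (edgeR adjusted p = 0.000420) and had a log2 fold change of 0.12 ± 0.147 without Usp5 (edgeR adjusted p = 0.610). Foxa1 and Nr5a2, hepatocyte factors, fell by 2.03 (-2.03 ± 0.203, edgeR adjusted p = 8.84e-05) and 2.58 (-2.58 ± 0.159, edgeR adjusted p = 3.88e-06) without Usp5. Their mean levels went from 6.94 to 1.69 CPM and from 15.9 to 2.66 CPM in turn. Foxa2, at a higher mean level of 103 CPM in control, rose to 183 CPM without Usp5 (0.83 ± 0.168, edgeR adjusted p = 0.00660). Without Ythdf1 Nr5a2 fell too, by 0.82 (-0.82 ± 0.145, edgeR adjusted p = 0.00127), and Foxa1 had a log2 fold change of -0.34 ± 0.187 (edgeR adjusted p = 0.164). Cebpa fell by 0.59 without Usp5 (-0.59 ± 0.138, edgeR adjusted p = 0.0141), a call lost without control sample 1 (-0.51, adjusted p = 0.0549), and had a log2 fold change of 0.14 ± 0.137 without Ythdf1 (edgeR adjusted p = 0.409). Whether any of these factors acted on the members was not tested.

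Other proteins that hepatocytes secrete were read beside the apolipoproteins. Of 42 such genes with a row, 19 were tested; 4 were higher and 3 lower without Usp5 (36.8% called, against 19.8% of all tested genes), and 14 were higher and 3 lower without Ythdf1 (89.5% against 46.5%). Alb, serum albumin, stood at 547, 534 and 689 CPM in control, 825, 969 and 1012 CPM without Usp5 and 1188, 1383 and 1159.6 CPM without Ythdf1. It rose by 0.66 ± 0.126 (SE; edgeR adjusted p = 0.00479) and 1.08 ± 0.127 (edgeR adjusted p = 0.000125), with no overlap between control and either knockout. Gc, the vitamin D binding protein, fell by 2.19 without Usp5 (-2.19 ± 0.158, edgeR adjusted p = 1.09e-05). It was also lower without Ythdf1, by 0.48 (-0.48 ± 0.145, edgeR adjusted p = 0.0205), a call lost without control sample 1 (-0.46, adjusted p = 0.0564), control sample 3 (-0.40, adjusted p = 0.0532) or Ythdf1 knockout sample 3 (-0.44, adjusted p = 0.0683). Fgb, a fibrinogen chain, rose by 1.34 ± 0.0935 without Ythdf1 (edgeR adjusted p = 6.28e-06) and had a log2 fold change of 0.06 ± 0.0927 without Usp5 (edgeR adjusted p = 0.675). Ttr, transthyretin, had 4, 1 and 2 counts in control, 12, 2 and 3 without Usp5 and 30, 33 and 23 without Ythdf1.

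Marker lists of other cell types were read in the same samples. Of 10 bile duct markers, 8 were at 1 CPM or more on average in at least 1 group. The whole list summed to 649 to 724 CPM in control, 860 to 979 CPM without Usp5 and 971 to 996 CPM without Ythdf1. Of 8 tested, 5 were higher and 1 lower without Usp5, where 19.8% of all tested genes were called. Without Ythdf1 3 were higher and 1 lower, where 46.5% of all tested genes were called. Krt19, Epcam and Sox9 rose without Usp5 by 2.28 ± 0.141, 1.79 ± 0.0947 and 0.98 ± 0.227 (SE; edgeR adjusted p = 3.88e-06, 1.51e-06 and 0.0129). Epcam also rose without Ythdf1, by 1.49 ± 0.0948 (edgeR adjusted p = 3.59e-06). Cldn4, a tight junction gene of that list, fell without Usp5 (-0.59 ± 0.108, edgeR adjusted p = 0.00390). It rose without Ythdf1 (1.91 ± 0.111, edgeR adjusted p = 1.95e-06). Spp1, osteopontin, fell by 0.67 without Ythdf1 (-0.67 ± 0.102, edgeR adjusted p = 0.000509). Without Cldn4, left out after its values were seen, the list summed to 516 to 610 CPM in control, 766 to 906 CPM without Usp5 and 480 to 532 CPM without Ythdf1, so that the Ythdf1 knockout then overlapped with control and had the lower range. Of 10 leukocyte markers, 3 reached 1 CPM by the same measure. That list summed to 13.0 to 15.5, 10.3 to 11.7 and 15.4 to 17.1 CPM, with Cd3e, Tyrobp and C1qa at 0. Endothelial markers, 1 of 8 at that level, summed to 1.5 to 2.68 CPM over all samples. Enterocyte markers, whose cell type also makes Apob and Apoa4, had 1 of 7 at that level. They summed to 148 to 203, 189 to 235 and 171 to 200 CPM and had Cdx1 at 0. The stellate cell and fibroblast list had 2 of 8 at that level. It summed to 856 to 1268, 1084 to 1415 and 1062 to 1290 CPM with Lrat at 0. The enterocyte and stellate sums thus came almost wholly from those few genes. The part of these lists in the changes of the members was not tested, and in bulk samples fewer cells of a type and less RNA per cell cannot be told apart.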

How the data were processed

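RNA of 9 Hepa 1-6 samples was sequenced, and the authors deposited 1 table of estimated counts per gene, written as whole numbers, with gene lengths in bases and effective lengths beside them. Per the submitters' processing notes, fastp 0.23.2, STAR 2.7.10a, Salmon 1.9.0 and GRCm39 were used, with no roles given; the annotation release and the use of strand are not given in the sources used here. No further rounding was needed, and 0 columns of per-sample values were left out. Sample descriptions gave the columns and titles the groups.

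Counts were tested in R 4.3.3 with edgeR 4.0.16: TMM scaling, filterByExpr, and the quasi-likelihood test in 1 fit of the 9 samples by group. Calls needed an adjusted p under 0.05 (Benjamini-Hochberg, over all 13661 genes tested). Standard errors were taken from each fold change and its test statistic. CPM are TMM-scaled; log2 CPM for correlations used a prior count of 2. No 2 libraries agreed within counting noise. The script was tested on simulated data.

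Named genes were the 10 members; both targets and a short set given whether called or not; from each list up to 3 called genes per direction that reach 5 CPM in either group, of which some are printed and some are not reported here; neighbours, up to 2 on each side; and the 3 genes most like each tested member. Members and lists were chosen with earlier results of these data known. Promoters and gene order came from RefSeq and GENCODE tables on GRCm38, matched by symbol; 8 of the 10 members had a promoter window. Alternatives were RLE scaling, library sizes alone, TMM without mitochondrial genes and members, DESeq2 1.42.0, limma-voom (limma 3.58.1), no filter, a stricter filter, a fit of the compared groups alone, a replicate block, stricter thresholds and leaving out each sample; effective lengths and a marker sum without Cldn4 were added after the data had been seen.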

Additional observations from a re-analysis of the deposited data

How the results depend on the processing

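Among alternatives that keep the threshold, calls of the members were lost or gained as given in the report; of 321 member fold changes recomputed, 302 kept their direction and side of the threshold. With library sizes alone the median of all genes moved by -0.0846 without Usp5 and -0.14 without Ythdf1, and the split of calls became 1026 higher and 1833 lower (1361 and 1339 with TMM) and 2159 higher and 4185 lower (3231 and 3119). The number of genes called without Usp5, 2700, was 1756 in a fit of the 2 groups, 1305 at an adjusted p under 0.01 and 771 when at least 2-fold, and 1494 (without control 2) to 4371 (without control 3) when 1 sample was left out, with 1736 without control 1 and 1626 without Usp5 knockout 2. At least 2-fold changes numbered 1250 of the 6350 genes called without Ythdf1 and 1656 of the 6627 between the knockouts, of which 4363 passed at 0.01; of the 3 members called between the knockouts, 1 passed at 0.01 and 1 was at least 2-fold.

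Signs that turned all belonged to fold changes that were not called. Leaving out 1 sample, Apob without Usp5 ran from -0.047 to 0.16 and Nr1h3 without Usp5 from -0.063 to 0.21; between the knockouts, Apoa1 ran from -0.52 to 0.088, Apoa5 from -0.18 to 0.23 and Lcat from -0.23 to 0.20. With library sizes alone Apob without Usp5 was -0.031, Cebpa without Ythdf1 -0.0014 and Lcat between the knockouts 0.041. Lcat was 0.0062 with RLE scaling, 0.0061 with DESeq2, 0.029 with limma-voom and 0.025 with no filter. The causes were not tested.

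With a replicate block, Apoa5 between the knockouts was -0.0075, the members called stayed at 3, 4 and 3 in number, and 2346, 6198 and 6458 genes were called. No pairing of the samples by number was detected, though deviations within groups of 3 cannot exclude one. Of 9 same-numbered pairs, 4 had a correlation of deviations over 0.1 (range -0.257 to 0.298). In 7 of 18 comparisons a sample was closest to its own number. Differences in Apoa1 and Apom, at under 1 CPM, could not be resolved at this depth.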
